A study of Mus musculus with 12 samples.

Results

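Platelet transcripts were followed in mouse blood neutrophils sorted for RNA sequencing. The set has 10 genes chosen by name as transcripts typical of platelets and of megakaryocytes, the marrow cells that shed platelets. The rule uses no measured value, but the genes were chosen with earlier results of these data known. Of the 10, 9 had a row among the 11494 genes of the deposited table, and 8 passed the filter on low values, which asked for at least 6 of the 12 libraries to reach 10 normalized reads. The libraries fell into 6 labelled LOY BMT and 6 labelled Control BMT, where LOY stands for a lost Y chromosome and BMT is the usual abbreviation of bone marrow transplant. Every library carries the treatment label Control. The labels give neither strain, age and time nor how the chromosome was lost, nor whether 1 mouse stands behind every library. All p-values therefore describe the spread among these 12 libraries, which may be technical. Each library was made from 10000 cells that were positive for the neutrophil surface protein Ly6G, negative for the monocyte receptor CD115 and positive for RFP, a red fluorescent protein whose role the labels do not state. No platelet marker is named in the sort.

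Recovered reads ranged from 17097739 to 19616066 in the LOY libraries and from 13743581 to 18459792 in the Control libraries. As a check of the labels, the Y-linked helicase gene Ddx3y stood between 0 and 31.96 normalized reads in 5 LOY libraries, at 366 in LOY 4 and between 650.4 and 1348 in Control, so the library labelled LOY 4 held 34.8% of the Control mean. Y-linked Eif2s3y, a translation initiation factor gene, stood at 42.0% of its own Control mean there. Listed genes at 0 made up 17.3% to 21.7% of all genes in Control 1, 2 and 12, and 6.59% to 11.6% in the other 9 libraries. All 7 neutrophil markers had a row. They summed to between 83808 and 114427 scaled reads (normalized reads per 1000000 of a library) in LOY and between 81800 and 130669 in Control.

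Platelets have no nucleus and carry RNA inherited from megakaryocytes. They store chemokines in alpha granules, bind von Willebrand factor through the GPIb-IX-V complex, and aggregate when the integrin alphaIIb beta3 binds fibrinogen. Activated platelets bind to circulating neutrophils through P-selectin and its neutrophil ligand PSGL-1. In bulk libraries such as these, fewer cells of a type and less RNA per cell cannot be told apart.

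The summed level of the 9 measured platelet transcripts differed between the groups by less than its spread among libraries. It averaged 97.7 ± 30.3 scaled reads in LOY and 92.9 ± 19.7 in Control (SD, n = 6 each). The LOY libraries ran from 42.9 in LOY 10 to 128 in LOY 15, and the Control libraries from 73.8 in Control 2 to 130.03 in Control 17. The difference of 4.76 was smaller than the pooled SD of 25.5, and it was −1.26 without LOY 15, 15.7 without LOY 10, 12.2 without Control 17 and −6.78 without Control 1, 2 and 12. Leaving out any other single library gave between 0.932 and 7.21. The neutrophil markers summed to between 661 and 2670 times the platelet level in LOY and between 629 and 1771 times in Control.

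**Figure D1:**
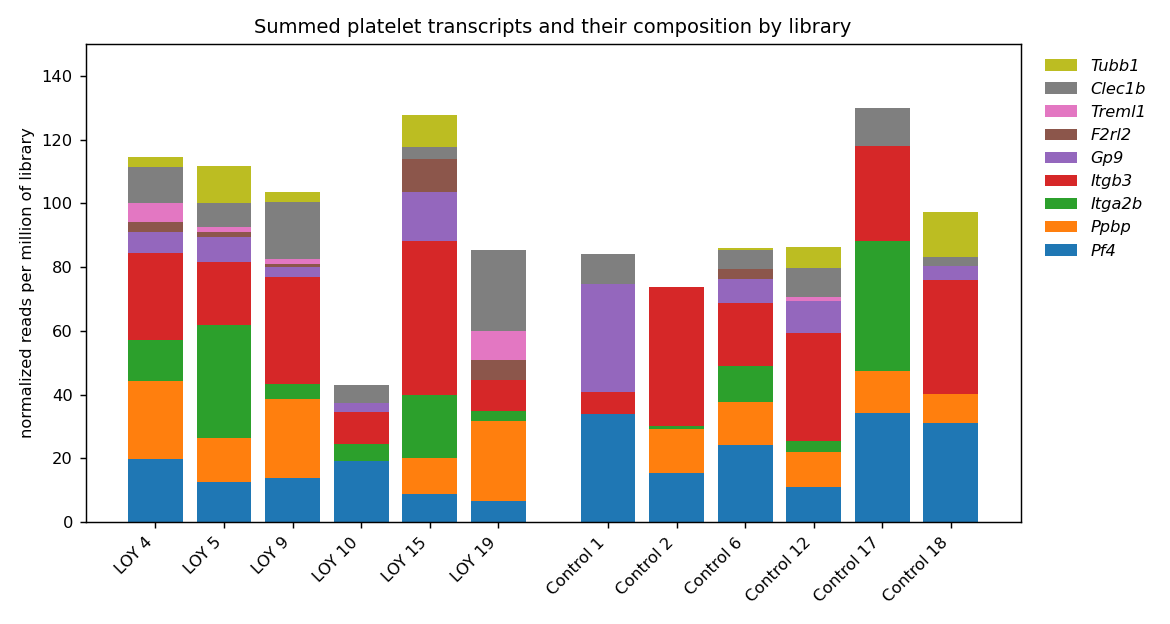
Stacked bars give scaled reads, that is normalized reads per 1000000 of library, (vertical axis) for the 9 measured platelet transcripts in each LOY library (left) and each Control library (right). The total ranged from 42.9 to 128 in LOY and from 73.8 to 130.03 in Control. The gene with the largest part of the reads, which are not corrected for gene length, changed from library to library.

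No 1 gene led the platelet signal throughout. By reads, with no correction for gene length, Itgb3 was the largest member in 6 libraries, Pf4 in 3, Itga2b in 2 and Clec1b in 1. This order depends on length, as Itgb3 has 5901 exonic bases and Pf4 721. Per kilobase of exon the mean over the 12 libraries was 26.6 scaled reads for Pf4 and 4.49 for Itgb3. Pf4 made up between 6.94% (LOY 15) and 44.8% (LOY 10) of the sum in LOY and between 12.8% (Control 12) and 40.4% (Control 1) in Control. Of the 9 genes 5 had their highest value in an LOY library and 4 in a Control library, over 6 different libraries. Over the 36 pairs of members the median Pearson correlation of log2(value + 1) across the 12 libraries was 0.152, with 22 pairs above 0. The points share library and depth, and many low values, so this is a description only.

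Other cell types were compared in the same libraries. The 7 erythroid markers, mainly globins, summed to between 5906 and 11134 scaled reads in 5 LOY libraries, to 38011 in LOY 15, and to between 4283 and 8889 in Control. LOY 15 also had the highest platelet sum of the LOY libraries, at 128, against 42.9 to 115 in the other 5. LOY 10 had the second highest erythroid sum of the LOY libraries and the lowest platelet sum. The part of red cell RNA in the platelet values was not tested. Of the 6 monocyte and macrophage markers 4 had a row, and they summed to between 746 and 1186 in LOY and between 626 and 1187 in Control. The most abundant of them was Csf1r, the gene of CD115, for which the cells were sorted as negative. The 4 B cell markers summed to between 3.45 and 78.9 in LOY and between 0 and 60.7 in Control. Of the 6 T and NK cell markers 4 had a row, among them Cd3d and Cd3g, and they summed to between 5.72 and 15.5 in LOY and between 7.01 and 28.3 in Control. For the eosinophil, basophil and mast cell list 3 of 6 markers had a row, while Cpa3, Epx and Prg2 had none. The sum was 51.9 to 102 in LOY and 39.5 to 86.1 in Control. It came mainly from 1 gene, Siglec5, the row of the listed marker Siglecf. Siglec5 averaged 1143 normalized reads in LOY and 1112 in Control, against 15.9 and 11.5 for Fcer1a.

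**Figure D2:**
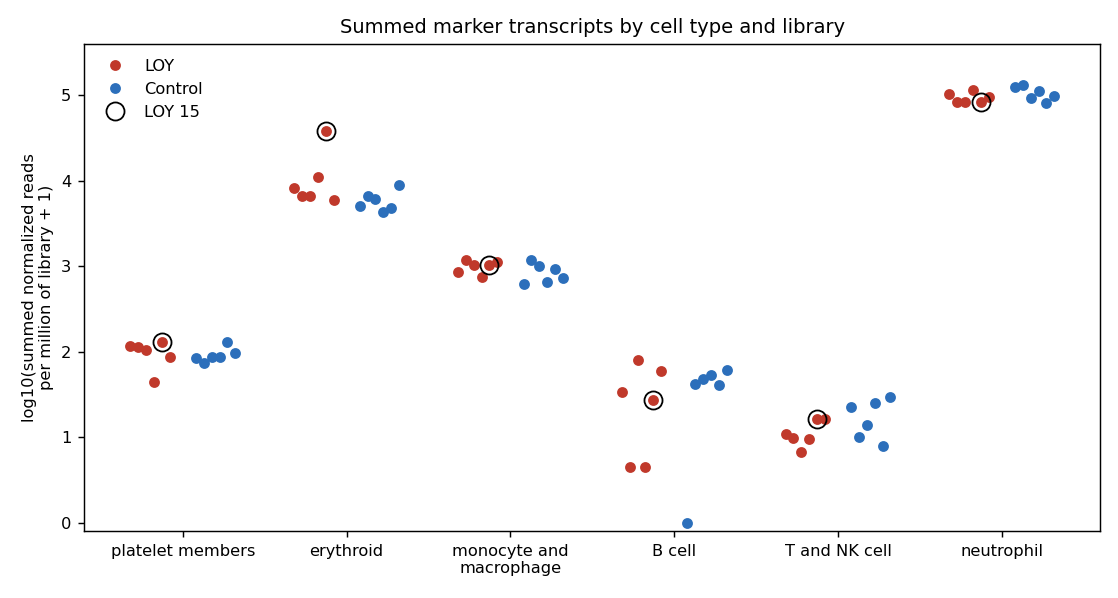
Points give log10 of the summed scaled reads + 1 (vertical axis) for the platelet set and the marker lists of other cell types, with LOY libraries left of Control libraries in each pair and LOY 15 ringed. The platelet sums of the groups overlap, while the erythroid sum of LOY 15, at 38011, stands above the other 11 libraries.

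The 8 genes that passed the filter were tested within a fit over all 9742 genes that passed the filter (limma on log2(value + 1), Benjamini-Hochberg adjustment over all of them). Of the 8 members tested 0 passed at an adjusted p under 0.05, beside 0.0205% of all tested genes. At an unadjusted p under 0.05 there was 1 member higher in LOY, F2rl2, beside 4.4% of all tested genes in that direction, and 1 lower, Pf4, beside 1.63%. In edgeR 0 of 8 members passed, beside 0.0% of all genes, and 1 had an unadjusted p under 0.05, beside 2.94%. By DESeq2 0 of 9 passed, beside 0.47% of all genes. The authors' deposited table called 0 of 9 and 0.47% of its genes. Its fold changes and unadjusted p-values for the 9 members equal those of DESeq2 here, so it is not a separate result. The median estimate of the 8 members was 0.95 with limma, against 0.14 for all tested genes. It was 0.49 with edgeR (all genes −0.01) and −0.21 in a model that held each library's percentage of zeros (all genes −0.04). The ranges of the groups overlapped for all 9 members, while 0.287% of all tested genes had groups that did not overlap.

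**Figure D3:**
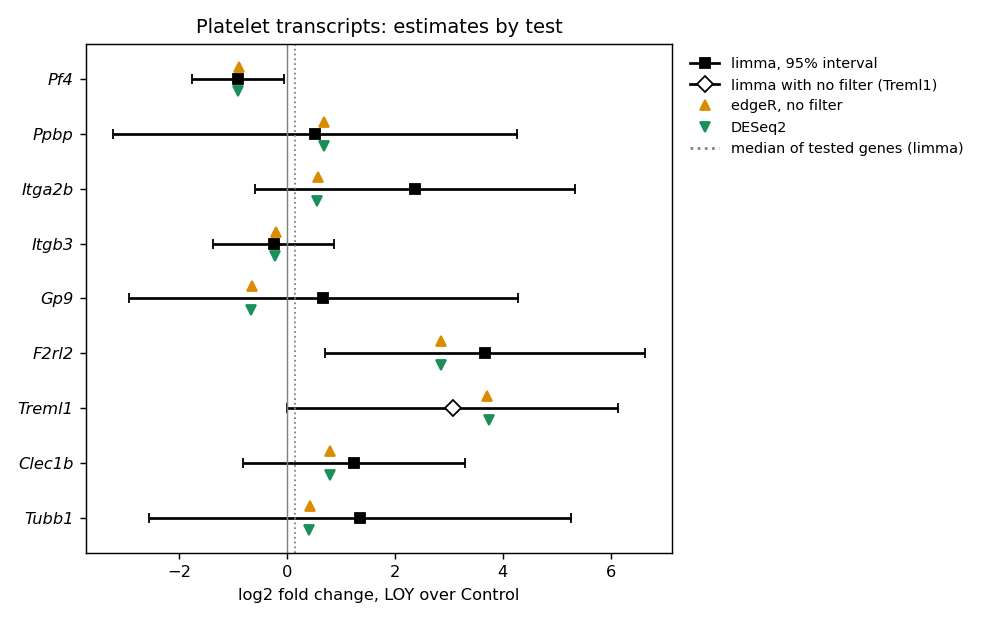
Squares give the limma log2 fold change of LOY over Control (horizontal axis) with its 95% interval for each platelet transcript, the open diamond the fit with no filter for Treml1, triangles the edgeR (no filter) and DESeq2 estimates, and the dotted line the limma median of all tested genes. The interval of Pf4 runs from −1.76 to −0.06, and Gp9 has its limma estimate above 0 and its count-based estimates below 0.

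The chemokine genes Pf4 and Ppbp lie next to each other on chromosome 5. Pf4 encodes platelet factor 4 (CXCL4), which binds heparin, and Ppbp encodes the precursor of CXCL7, a ligand of the neutrophil receptor CXCR2. Pf4 spans 90772435 to 90773383 and Ppbp 90768518 to 90770063, both on the plus strand (GRCm38), with 2371 bases and no annotated gene between them. Their promoter windows, 250 bases before to 50 after the transcript start (RefSeq, GRCm38.p6), are shown because these neighbours differed between libraries, beside that of Itga2b, a widely used megakaryocyte gene. Capitals mark GATAA, the core of sites bound by GATA factors, and GGAAG, a core of sites bound by ETS factors, on either strand.
Pf4: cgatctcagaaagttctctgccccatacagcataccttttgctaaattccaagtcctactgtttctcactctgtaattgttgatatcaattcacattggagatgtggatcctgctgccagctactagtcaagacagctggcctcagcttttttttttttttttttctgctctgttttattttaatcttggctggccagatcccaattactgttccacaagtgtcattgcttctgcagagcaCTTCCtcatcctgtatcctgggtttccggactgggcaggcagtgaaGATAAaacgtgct
Ppbp: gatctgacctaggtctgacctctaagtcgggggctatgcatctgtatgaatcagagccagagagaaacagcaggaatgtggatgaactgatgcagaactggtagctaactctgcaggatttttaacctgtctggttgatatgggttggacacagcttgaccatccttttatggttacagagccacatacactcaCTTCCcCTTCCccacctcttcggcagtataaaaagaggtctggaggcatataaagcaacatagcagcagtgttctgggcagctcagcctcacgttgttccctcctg
Itga2b: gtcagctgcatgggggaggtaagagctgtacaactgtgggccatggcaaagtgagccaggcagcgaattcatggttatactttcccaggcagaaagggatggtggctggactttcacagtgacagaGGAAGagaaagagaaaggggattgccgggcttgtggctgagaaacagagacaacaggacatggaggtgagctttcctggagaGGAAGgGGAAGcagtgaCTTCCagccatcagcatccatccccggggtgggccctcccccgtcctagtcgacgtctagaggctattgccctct
The windows are chr5:90772185-90772484 on the plus strand for Pf4, chr5:90768268-90768567 on the plus strand for Ppbp and chr11:102469834-102470133 on the minus strand for Itga2b. GATAA (or TTATC, its reverse complement) was found in 4 of the 9 member windows, beside 25.4% of all 32851 windows of the same length. GGAAG (or CTTCC) was found in 8 of 9, beside 71.4% of all windows. The motifs can share an end base, a match is a description and not a binding site, and Itgb3 had no window. Of the windows shown, that of Pf4 held 1 match to each motif, while those of Ppbp and Itga2b held 2 and 4 matches to GGAAG and none to GATAA.

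Pf4 had the lowest coefficient of variation of the set, 50.9% over the 12 libraries. It stood at 102 to 329 normalized reads with a median of 208 in LOY, and at 187 to 599 with a median of 442 in Control. The 2 lowest LOY libraries, LOY 15 and 19, lay under every Control library and 4 Control libraries lay above every LOY library, while the ranges overlapped. The means were 220.2 ± 93.1 in LOY and 414 ± 161 in Control (SD, n = 6 each). The log2 fold change was −0.91 ± 0.39 (SE), with a 95% interval of −1.76 to −0.06, and it did not pass (limma adjusted p = 0.81). Relative to the median of all tested genes the estimate was −1.05. With 1 library left out it stayed between −1.12 and −0.72, and over all alternatives its adjusted p ranged from 0.626 to 1.00. The authors' deposited table gave it a log2 fold change of −0.91 with an adjusted p of 0.694.

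Ppbp had 0 reads in 2 libraries in which its neighbour was read. It stood at 0 in LOY 10 and at 184 to 400.2 in the other LOY libraries with a median over all 6 of 304, and at 0 in Control 1 and at 145 to 243 in the remaining 5 with a median over all 6 of 196. In 3 LOY libraries it lay above every Control library. The libraries at 0 for Ppbp had the highest Pf4 value of their group, 329 normalized reads in LOY 10 and 599 in Control 1. LOY 4 held nearly as much Pf4 as LOY 10, 328, together with the highest Ppbp value of the 12 libraries, 400.2. LOY 19 held almost the same Ppbp value with the lowest Pf4 value, 102. The log2 fold change was 0.52 ± 1.73 (SE; limma adjusted p = 0.957). Without Control 1 it was −0.76, and −1.64 in the model with the percentage of zeros. A count of 0 allows up to 3 reads, which is between 2.46 and 3.84 normalized reads in these libraries, for counting error only.

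**Figure D4:**
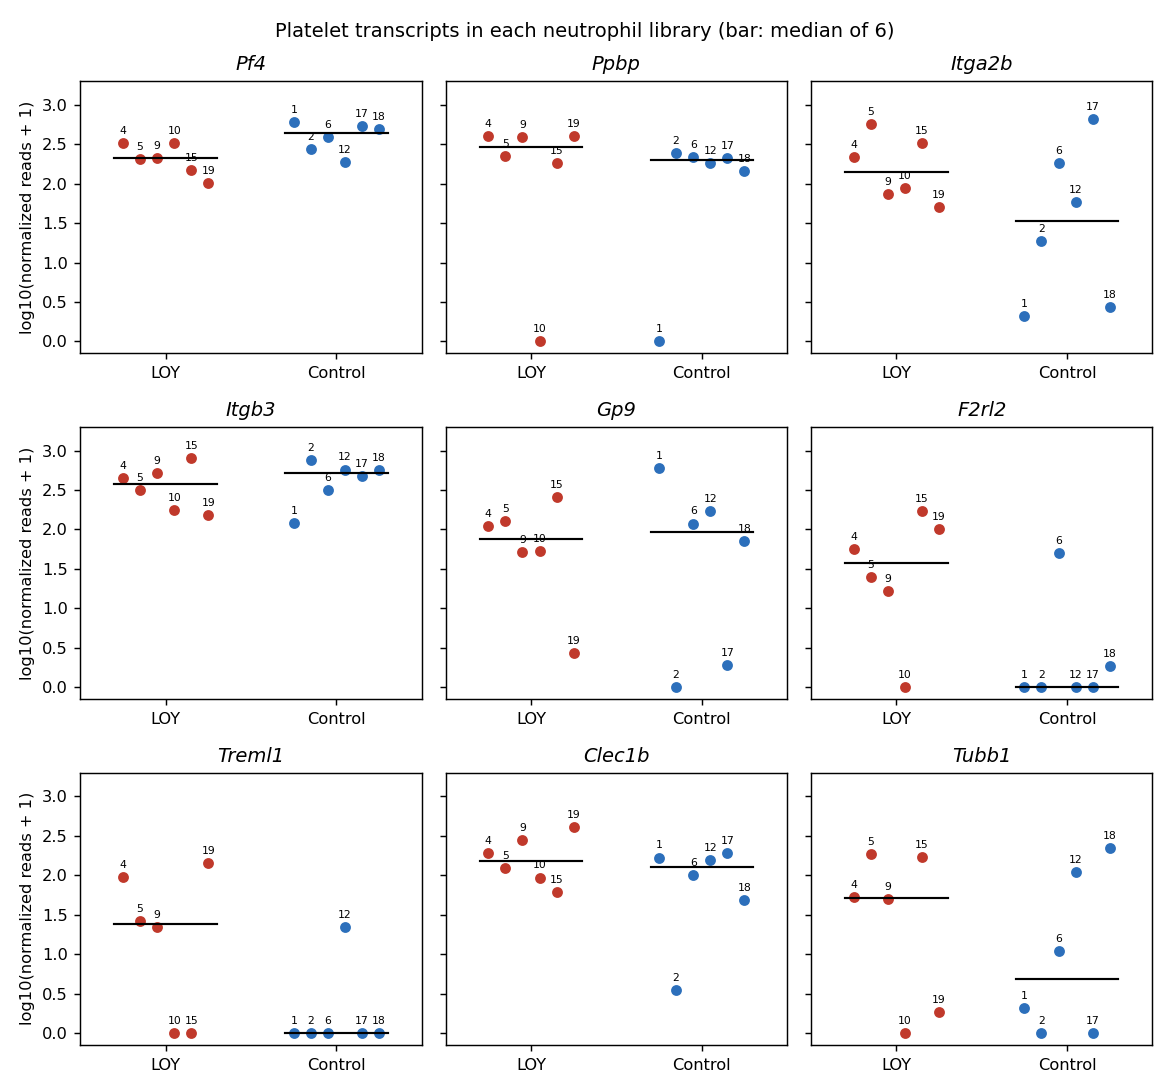
Points give log10(normalized reads + 1) (vertical axis) of each platelet transcript in the 6 LOY libraries (left) and the 6 Control libraries (right), numbered by library, with a bar at the median. Pf4 and Itgb3 were read in all 12 libraries, whereas F2rl2 and Treml1 were at 0 in 4 and 5 Control libraries.

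Itga2b and Itgb3 encode the alphaIIb and beta3 chains of the fibrinogen receptor, and beta3 also pairs with the alphaV chain in other cells. Itga2b lies on chromosome 11 from 102453297 to 102470122 on the minus strand, and Itgb3 on the same chromosome from 104608000 to 104670476 on the plus strand (GRCm38). Itga2b stood at 50.1 to 572 normalized reads with a median of 151 in LOY, and at 1.08 to 649.8 with a median of 37.8 in Control. The highest value was that of Control 17, while Control 1 and 18 held 1 and 2 recovered reads, so the Control range enclosed the LOY range. The estimate for Itga2b was 2.36 ± 1.37 (log2, SE; limma adjusted p = 0.823). It was 0.57 in edgeR, 0.55 in DESeq2 and 0.73 in the model with the percentage of zeros. Itgb3 was read in all 12 libraries, at 153 to 797 with a median of 382 in LOY and at 119 to 765 with a median of 523 in Control. The groups lay over each other, with a log2 fold change of −0.25 ± 0.52 (limma adjusted p = 0.931) and a 95% interval of −1.37 to 0.87. The values of the 2 chains were not in a fixed proportion. In Control 2 Itga2b stood at 17.9 normalized reads and Itgb3 at 765, whereas in Control 17 they stood at 649.8 and 475.

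Gp9 and Gp1bb encode 2 subunits of the receptor for von Willebrand factor. Gp9 (chromosome 6, 87778072 to 87779768, plus strand) stood at 1.73 to 256 normalized reads with a median of 80.4 in LOY and at 0 to 596 with a median of 93.9 in Control. Control 1, at 596, lay above the other 11 libraries, while Control 2 and 17 held 0 and 1 recovered reads and LOY 19 held 2. The log2 fold change was 0.67 ± 1.66 (SE; limma adjusted p = 0.943), and its sign turned with edgeR (−0.65) and DESeq2 (−0.68) and without Control 2 (−0.35) or Control 17 (−0.16). Gp1bb (chromosome 16, 18620317 to 18622403, minus strand) had no row and was not analysed here. In the GENCODE M21 annotation 1902 of its 2087 exonic bases, or 91.1%, are also exonic in the neighbouring gene Sept5 on the same strand. Sept5 had a row, at 2.81 to 58.6 normalized reads over the 12 libraries, and the sources used here do not give how reads shared by both genes were counted.

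F2rl2, Clec1b and Treml1 encode receptors. F2rl2 encodes PAR3, which in mouse platelets binds thrombin and presents it to PAR4, and lies on chromosome 13 from 95696853 to 95702739 (plus strand). It was at 0 in LOY 10 and at 15.5 to 169.7 normalized reads in the other 5 LOY libraries. In Control it was at 0 in 4 libraries, at 1 recovered read in Control 18 and at 49.3 in Control 6. The means were 60.7 ± 64.01 in LOY and 8.37 ± 20.1 in Control, with 3 LOY libraries above every Control library. The log2 fold change was 3.67 ± 1.37 (SE), with a 95% interval of 0.70 to 6.64, and did not pass (limma adjusted p = 0.77, range over all alternatives 0.336 to 1.00). It was 2.85 in edgeR, 2.23 with quantile normalization and 2.01 in the model with the percentage of zeros. Iqgap2 runs across F2rl2 on the opposite strand without sharing exonic bases, and the kit does not mark strand. Iqgap2 itself stood at 202 to 1184 normalized reads.

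Treml1 encodes TLT-1, a receptor kept in platelet alpha granules and brought to the surface on activation, and lies on chromosome 17 from 48359916 to 48367176 (plus strand). It was above 0 in 4 LOY libraries, at 94.5 in LOY 4, 25.4 in LOY 5, 20.9 in LOY 9 and 141 in LOY 19. In Control it was above 0 in 1 library, Control 12, at 21.1. It was below the filter on low values, with 5 libraries at 10 or more. In the fit with no filter its log2 fold change was 3.07 ± 1.42 (SE; limma adjusted p = 0.781 over 11494 genes, of which 0.0174% passed). Clec1b encodes CLEC-2, the platelet receptor for podoplanin, which in mice has also been described on some myeloid cells. It lies on chromosome 6 from 129397297 to 129409335 (plus strand) and stood at 60.7 to 404 normalized reads with a median of 155 in LOY and at 2.56 to 189 with a median of 128 in Control. LOY 9 and 19 lay above every Control library and Control 2 and 18 below every LOY library. The log2 fold change was 1.24 ± 0.95 (limma adjusted p = 0.84), and 0.39 without Control 2. In the annotation 184 of its 5103 exonic bases are shared with Clec9a.

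Tubb1 encodes beta1 tubulin, which forms the marginal band that keeps platelets discoid. It lies on chromosome 2 from 174450695 to 174457882 (plus strand). It stood at 0 to 187 normalized reads with a median of 50.6 in LOY and at 0 to 223 with a median of 5.57 in Control. Control 12 and 18 held 109.9 and 223, and the remaining 4 of that group 0 to 10.1. LOY 10 and 19 held 0 and 1 recovered reads. The log2 fold change was 1.35 ± 1.81 (SE; limma adjusted p = 0.887). It was 0.42 in edgeR, 0.40 in DESeq2 and −0.86 in the model with the percentage of zeros, and ranged from 0.71 (without Control 2 or 17) to 2.27 (without Control 18) with 1 library left out.

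Many values were either over 100 reads or close to 0. Of 108 values (9 genes in 12 libraries), 18 were 0, 8 were 1 to 3 recovered reads, 1 was 4 to 10, 5 were 11 to 30, 17 were 31 to 100 and 59 were over 100. The same classes were counted in the 5572 listed genes whose mean lay in the same range as the members (25.2 to 436 normalized reads). There 10.3% of values were 0 and 5.87% were 1 to 3 reads, against 16.7% and 7.41% of the members' values. Values over 100 reads made up 49.8% there and 54.6% for the members. The median coefficient of variation over the 12 libraries was 119% for the members, 79.0% for the genes in that range and 61.4% for all listed genes. In LOY 5 of 54 member values were 0 and in Control 13 of 54, which is 9.26% of the LOY values and 24.1% of the Control values. Genes in the same range of means had 6.50% of values at 0 in LOY and 14.1% in Control, so the share of genes at 0 moved with the groups as well, and its part in the members' zeros was not tested. In Control 1, 2 and 12 together 8 of 27 member values were 0, and in Control 6, 17 and 18 together 5 of 27. Between 5 (LOY 10) and 9 members had more than 3 reads in an LOY library, and between 4 (Control 1 and 2) and 8 in a Control library.

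Per length the 9 genes covered a wide range of levels. Pf4 was highest, at 18.6 ± 7.48 scaled reads per kilobase of exon in LOY and 34.6 ± 13.7 in Control (SD, n = 6 each). Over all 12 libraries the level of Pf4 was 26.6 ± 13.4, that of Ppbp 12.3 ± 7.77, that of Gp9 8.70 ± 10.7 and that of Itgb3 4.49 ± 2.28. Tubb1 followed at 2.92 ± 3.67, Itga2b at 2.11 ± 2.54 and Clec1b at 1.82 ± 1.36, with Treml1 at 1.12 ± 2.02 and F2rl2 at 0.851 ± 1.29. Of the 8 neighbouring pairs in this order, the difference between Pf4 and Ppbp, 14.3, was larger than the larger SD of the pair (13.4), and Pf4 was the higher of the 2 in 10 of 12 libraries. Within groups the order of the means differed. Ppbp stood at 15.3 ± 9.37 in LOY and 9.29 ± 4.85 in Control, so that within LOY its gap to Pf4 was smaller than the larger SD. Gp9 stood at 6.88 ± 6.13 in LOY and 10.5 ± 14.4 in Control, which put its mean above that of Ppbp in Control. In Control 1 Gp9 stood at 38.3 and Ppbp at 0. Gp9 was also the higher of these genes in Control 12, while Ppbp was the higher in Control 2, 6, 17 and 18. The other 7 pairs differed by less than the larger SD over the 12 libraries. On the same scale S100a8, a calcium-binding protein gene that is among the most abundant of neutrophil transcripts, stood at 59807 ± 14097, and the globin gene Hbb-bs at 3256 ± 3645.

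Other platelet and megakaryocyte genes were read from 6 lists, many members of which neutrophils also express. Of 131 listed genes 99 had a row and 85 were tested, and 0 passed (limma). At an unadjusted p under 0.05 there were 4 of 85 (4.71%), all higher in LOY, beside 6.04% of all tested genes, and the median estimate of the 85 was 0.00 against 0.14 for all tested genes. In edgeR 0 passed and 3 had an unadjusted p under 0.05. DESeq2 called 2 of the 99, F13a1 and Bin2, beside 0.47% of all genes. Of 26 other surface receptor genes 15 had a row and 0 of 11 tested passed. The most abundant were the tetraspanin gene Cd9, at 14877 ± 2185 normalized reads in LOY and 16293 ± 2927 in Control, and the SLAM family receptor gene Cd84, at 10698 ± 1400 in LOY and 10302 ± 2211 in Control. Gp1ba, which encodes the von Willebrand factor binding chain of the complex that Gp9 belongs to, had the smallest p of this list, at 0 to 108 normalized reads in LOY and 0 to 24.3 in Control (log2 fold change 2.10 ± 1.42 SE, limma adjusted p = 0.826). Selp, the P-selectin gene, named after its values were seen, was read in all 12 libraries, at 193 to 568 in LOY and 198 to 543 in Control (0.21 ± 0.33, limma adjusted p = 0.908).

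Among 21 other alpha granule genes 10 had a row and 0 of 6 tested passed. Srgn, which encodes the granule proteoglycan serglycin and is also expressed by neutrophils, stood at 40365 ± 5956 normalized reads in LOY and 44302 ± 10043 in Control, and the thrombospondin gene Thbs1 at 2449 ± 1551 in LOY and 2661 ± 1280 in Control. Among 27 secretion, enzyme and cytoskeleton genes 24 had a row and 0 of 22 tested passed with limma. Bin2, which encodes a membrane-shaping BAR domain protein of blood cells, had the smallest p, at 11646 to 16134 in LOY and 8912 to 12065 in Control. Its log2 fold change was 0.42 ± 0.10 (SE; limma adjusted p = 0.333), while the authors' deposited table lists 0.0256 as adjusted p. The pleckstrin gene Plek (23714 ± 2126 in LOY, 22860 ± 3115 in Control) and the filamin gene Flna (23918 ± 4763 in LOY, 21545 ± 4789 in Control) were the most abundant of that list.

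Signalling and transcription factor genes related to the members were read from 3 lists. Of 19 genes listed for the activation of the integrin alphaIIb beta3, whether they promote or restrain it, 18 were tested and 0 passed. Vcl, the gene of the adhesion protein vinculin, had the smallest p, at 484 to 896 normalized reads in LOY and 211 to 574 in Control (log2 fold change 0.98 ± 0.26 SE, limma adjusted p = 0.526). Zyx, the zyxin gene, stood at 33780 ± 15931 in LOY and 40619 ± 13109 in Control, and the phosphatase gene Ptpn6 at 34442 ± 3023 in LOY and 34682 ± 4403 in Control. Of 20 genes listed for signalling from CLEC-2 and the collagen receptor GPVI, 16 were tested and 0 passed. The GTPase gene Rac2 stood at 54974 ± 6530 in LOY and 56838 ± 5325 in Control. The Fc receptor gamma chain gene Fcer1g stood at 28767 ± 2533 in LOY and 29273 ± 2523 in Control. Cd244 had the smallest p of this list (0.48 ± 0.23, limma adjusted p = 0.81), but its place in the list does not show that it acts in this signalling. Of 18 megakaryocyte transcription factor genes 15 had a row and 0 of 12 tested passed. Nfe2, which megakaryocytes need for platelet release, stood at 9190 ± 1488 in LOY and 8351 ± 957 in Control, Mafg, whose protein pairs with that of Nfe2, at 2600 ± 429 in LOY and 3398 ± 1577 in Control, and Hhex had the smallest p (−0.59 ± 0.35, limma adjusted p = 0.823).

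Of 16 neutrophil genes whose products meet platelets 14 had a row, the 2 most abundant being Selplg and Cxcr2. Selplg, which encodes PSGL-1, stood at 74759 ± 9018 normalized reads in LOY and 65755 ± 4539 in Control (log2 fold change 0.18 ± 0.08 SE, limma adjusted p = 0.81). Cxcr2, the receptor gene for the product of Ppbp, stood at 46338 ± 2732 in LOY and 47483 ± 1722 in Control (−0.04 ± 0.05). Of the 14 genes 13 were tested and 0 passed (limma). The 5 genes outside the platelet set whose log2(value + 1) had the highest Pearson correlation with that of the summed platelet level over the 12 libraries were Tmed9 (r = 0.93), Stx2 (0.88), Desi2 (0.85), Sumf1 (0.84) and Trp53i13 (0.83). They are the top of 9734 genes ranked on 12 points, so the values are a description with no test.

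The marker genes named for the other cell types did not pass either (limma). S100a8 stood at 612705 ± 128099 normalized reads in LOY and 765826 ± 224829 in Control, and its partner gene S100a9 at 481767 ± 95187 in LOY and 579594 ± 139906 in Control. Of the globin genes, Hba-a1 stood at 86381 ± 79046 in LOY and 42864 ± 11911 in Control, and Hbb-bt had the smallest p of the erythroid list (log2 fold change 0.83 ± 0.42 SE, limma adjusted p = 0.81). The CSF1 receptor (CD115) gene Csf1r stood at 12442 ± 2295 in LOY and 9279 ± 2572 in Control (0.45 ± 0.19, limma adjusted p = 0.81). Adgre1, the gene of the macrophage marker F4/80, stood at 2129 ± 1062 in LOY and 2552 ± 1698 in Control. B cell genes were low, with Cd79a at 186 ± 134 in LOY and 322 ± 235 in Control, and Ms4a1, of smallest p, at 112 ± 119 in LOY and 99.3 ± 132 in Control. The T cell receptor complex genes Cd3d and Cd3g stood at 99.2 ± 55.9 and 39.7 ± 44.5 in LOY and at 137 ± 62.4 and 131 ± 99.3 in Control. Siglec5 stood at 1143 ± 287 in LOY and 1112 ± 303 in Control, and Fcer1a, the IgE receptor gene of basophils and mast cells, which was under the filter, at 15.9 ± 26.7 in LOY and 11.5 ± 27.8 in Control.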

How the data were processed

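RNA was measured in 12 libraries of sorted mouse blood neutrophils, 6 LOY and 6 Control, grouped by their titles. Per the labels' protocols, cDNA was made with SMART-Seq v4 and libraries with Nextera XT, which does not mark strand. Per the submitters' processing notes, the tools were STAR 2.5.2b, Trimmomatic 0.36, Subread 1.5.2, featureCounts and bcl2fastq 2.17, and the builds GRCm38 and mm10. Each library's values are a normalized signal as deposited, here called normalized reads, for 11494 genes, with no unit in the header. All values above 0 were whole multiples of 1 step per library within 0.02 reads (100% in each library), so whole reads were recovered and intervals of counts cover counting error only. Further columns give log2 fold changes and p-values of the authors, per the file headers. Genes with a mean under 8.63 were not listed. The exonic lengths and positions came from GENCODE M21, which held 11472 of the identifiers.

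The main test was limma 3.58.1 (R 4.3.3, trended and robust empirical Bayes) on log2(value + 1), a scale on which values near 0 weigh heavily and fold changes can differ from those of count models, for the 9742 genes reaching 10 in at least 6 libraries. Benjamini-Hochberg adjustment ran over all genes tested, with a threshold of 0.05. Sums of members are scaled to 1000000 normalized reads and got no test. Alternatives used the recovered reads in edgeR 4.0.16 and DESeq2 1.42.0, quantile normalization, pseudocounts of 0.5 and 5, no filter, a minimum mean of 50, each library's percentage of zeros as a term in the model, and libraries left out. Fits were tested on simulated counts with 200 changed genes. All members are named. From each further list the 2 most abundant genes and the gene with the smallest p were picked as named genes, to which the 5 genes most correlated with the summed level were added. Genes outside this rule are named as such. A gene that the rule picks is not reported here. The members and lists were chosen with earlier results of these data known.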

Additional observations from a re-analysis of the deposited data

Results flagged for a closer look

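In 4 of the 20 sets of 6 libraries examined (9 genes and their sum in 2 groups), 1 library lay far from the other 5 of its group. Chance gives about 1 in 20 for independent, normally spread values, which these are not: the sum is made of the same genes, and for F2rl2 and Treml1 all or nearly all other libraries were at 0. All 4 are Control libraries, and each is a different one. Itga2b stood at 649.8 normalized reads in Control 17, with the next Control library at 180.2. Gp9 stood at 595.7 in Control 1, with the next at 169.4. F2rl2 stood at 49.3 in Control 6, with the next at 0.875. Treml1 stood at 21.1 in Control 12, with the other 5 at 0.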

How the results depend on the processing

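The count of platelet transcripts that passed stayed at 0 under all 22 alternatives. The count of all genes that passed, 2 with limma, was 0 with edgeR with or without the filter, quantile normalization, a minimum mean of 50, the percentage of zeros in the model and without Control 1, 2 and 12, and 54 with DESeq2. With 1 library left out it ranged from 0 to 17. It was 17 without Control 6, 7 without Control 18, 5 without Control 12 and 1 without Control 1 or 17. Without LOY 4 it was 3, of which 1 was higher in LOY. It was 0 without LOY 5, 9, 10, 15 or 19 or Control 2. The estimates of Pf4, Itga2b, Itgb3, F2rl2, Treml1 and Clec1b kept their sign under every alternative run, but not their size. That of Itgb3 ranged from −0.61 (without Control 1) to −0.02 (without LOY 19), that of Clec1b from 0.34 (percentage of zeros in the model) to 1.54 (without Control 17) and that of Itga2b from 0.55 (DESeq2) to 3.25 (without Control 17). That of Ppbp turned to −1.64 with the percentage of zeros in the model and −0.68 without Control 1, 2 and 12, and ranged from −0.76 to 1.89 with 1 library left out. That of Gp9 turned to −0.65 with edgeR, −0.66 with edgeR and no filter (chosen after seeing the data) and −0.68 with DESeq2, and ranged from −0.35 to 1.53 with 1 library left out. That of Tubb1 turned to −0.86 with the percentage of zeros in the model. The difference in summed level, 4.76, ran from −6.78 to 15.7 over the 16 alternatives. One of these, without Itgb3 and Clec1b (2.99), was chosen after seeing the data. The sign turned without LOY 15 (−1.26) and without Control 1, 2 and 12 (−6.78). Every alternative stayed within 1 pooled SD of 4.76. Leaving out 1 library of 6 could not move it that far, so those runs do not measure stability. The median log2 fold change of all genes was 0.14 with limma, −0.01 with edgeR, −0.02 with DESeq2 and 0.00 with quantile normalization. No paired analysis was possible because the groups share no replicate number. Reads of 0 in part of the libraries limit the precision: the SE of the log2 fold change was 0.39 for Pf4 and 1.81 for Tubb1.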

Other observations

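Of the 140 genes in the other lists, 4 (2.86%) were at 0 in all 6 Control libraries and above 0 in some LOY libraries, and 0 were the other way round. Over all 11494 listed genes there were 96 (0.835%) at 0 in all Control libraries and 44 (0.383%) at 0 in all LOY libraries, and zeros were more frequent in Control among genes of all kinds. Genes with a mean under 8.63 were not listed, so a gene at 0 throughout 1 group has a row only through the other group. The 4 thus have a row only through their LOY values, and they are named after their values were seen. Gp6, the gene of the platelet collagen receptor GPVI, was above 0 in 4 LOY libraries, with up to 99.3 normalized reads. Gfi1b, a repressor gene needed by megakaryocytes and red cell precursors, was above 0 in 3 LOY libraries, with up to 85.1. F13a1, the gene of coagulation factor XIII subunit A, which monocytes also express, was above 0 in 2 LOY libraries, at 79.5 in LOY 5 and 138 in LOY 15. Rab27b, the gene of a GTPase of granule secretion, was above 0 in LOY 5 and LOY 19, at 44.3 and 69.2. None of the 4 reached the filter on low values, so they were not in the limma fit. DESeq2, which had no such filter, called F13a1. As adjusted p the authors' deposited table lists 1e-08 for F13a1, which was read in 2 of 12 libraries, 0.549 for Gp6 and 0.485 for Gfi1b.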
